A study of Mus musculus with 12 samples.

Results

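The genes described here are those of the CD4 and CD8 lineages of T cells: the coreceptor genes Cd4, Cd8a and Cd8b1, and the transcription factor genes Zbtb7b, which encodes ThPOK, Runx1 and Runx3. They were chosen by symbol, with their values in these same libraries known, and are 6 of the 45706 genes in the count table. All 6 passed the filter on low counts, as did 15922 genes in all. Because the choice rested on the measured levels and on the comparisons between these groups, the members' levels and fold changes are given as a description, with no p-values.

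Polyadenylated RNA of mouse conventional T cells (con) and regulatory T cells (trg) was sequenced from 2 genotypes, with 3 libraries in each of the 4 groups. The genotypes were wild type (WT) and Coro1-/- (KO), which lacks coronin 1, an actin-binding protein of leukocytes encoded by Coro1a. The series title places the work in a study of T cell signalling in allograft rejection. No treatment, strain, age, tissue of origin or sorting gate is given in the labels used here, which do not say whether the replicates came from separate animals. The reads of sex-linked genes given below differ within each group, so no group came from a single animal. Whether each replicate is a separate animal is not known. Errors measure the spread between these libraries, part of which may be technical.

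CD4 and CD8 are the coreceptors that bind MHC class II and class I molecules beside the T cell receptor and bring the kinase Lck to it. CD8 is built either as a dimer of alpha chains or as an alpha and beta pair, and the beta chain needs the alpha chain to reach the cell surface. In the thymus ThPOK holds cells in the CD4 lineage and represses CD8 genes. Runx3 and Runx1 act with their partner CBF beta, silencing Cd4 in cells that take the CD8 fate, and Runx proteins also bind Foxp3 in regulatory T cells.

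RUNX proteins bind a core motif, ACCACA or its reverse complement TGTGGT, which was searched on both strands of the RefSeq promoter windows of GRCm38.p6, each from 250 bases before to 50 bases after an annotated start. Windows were held for 4 of the 6 members, 7 windows in all. The following 30-base runs are shown because they are the stretches of member promoters, and of the promoter of their family member Runx2, that hold the motif; capitals mark each match.
Runx1, distal start (GRCm38.p6, chr16:92826025-92826054, minus strand, from transcript base 21): cataaacaACCACAgaACCACAagttgggt
Runx2 (GRCm38.p6, chr17:44814583-44814612, minus strand, from transcript base 16): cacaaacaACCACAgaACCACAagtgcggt
Runx3, distal start (GRCm38.p6, chr4:135120503-135120532, plus strand, from 142 bases before the start): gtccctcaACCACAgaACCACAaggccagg
Zbtb7b, second start (GRCm38.p6, chr3:89387743-89387772, minus strand, from 101 bases before the start): ctggcgaggaacTGTGGTatgtgagtgggt
The 3 Runx genes held the motif in a tandem pair inside a shared run of 18 bases, and that run occurred in 4 of 32851 windows, those of Runx1, Runx2, Runx3 and Gm16225. A match was present in 16.8% of all windows of this length, and more than 1 match in 1.81%. The Cd8a window, the other Zbtb7b window and the proximal Runx1 and Runx3 windows held 0 matches. These matches describe the letters only.

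Libraries held 19686870 to 33404302 reads assigned to genes. Levels are given as CPM, the usual scaling of read counts to library size, with library sizes adjusted by edgeR's trimmed mean of M values (TMM). The targeted gene Coro1a lay at 2124 to 2399 CPM in WT conventional, 44.1 to 47.3 CPM in KO conventional, 2312 to 2713 CPM in WT regulatory libraries and 20.9 to 30.4 CPM in the KO regulatory libraries, in the order of the labels. The share of multimapping reads was 9.25 to 11.1% in conventional and 15.8 to 19.5% in regulatory libraries. WT regulatory replicate 3 and KO regulatory replicate 1 held Xist reads and Y-linked reads together, with over 1000 of the former and over 300 of the latter, and no other library did. Among the conventional libraries replicate 3 of each genotype held over 300 Y-linked reads and the others 0 or 1, whereas all 6 regulatory libraries held over 300, so sex and cell type are partly confounded.

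Markers of other cells differed between the groups. The 6 T cell markers (Cd3d, Cd3e, Cd3g, Cd5, Cd6, Lat) summed to 3063 to 3352 CPM in WT conventional, 1949 to 2316 CPM in KO conventional, 1683 to 2323 CPM in WT regulatory libraries and 1084 to 1663 CPM in the KO regulatory libraries. The 6 B cell markers summed to 2.88 to 4.14, 24.2 to 40.8, 2989 to 4177 and 3210 to 3927 CPM in the same order of groups, with no overlap between the cell types. The 5 regulatory T cell markers summed to 128 to 183 CPM in WT conventional libraries and 250 to 414 CPM in the KO conventional libraries, against 1658 to 1923 and 1434 to 1943 CPM in the regulatory ones, where Foxp3 itself lay at 443 to 642 CPM. In bulk RNA, fewer cells of a type and less RNA per cell cannot be told apart.

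**Figure D1:**
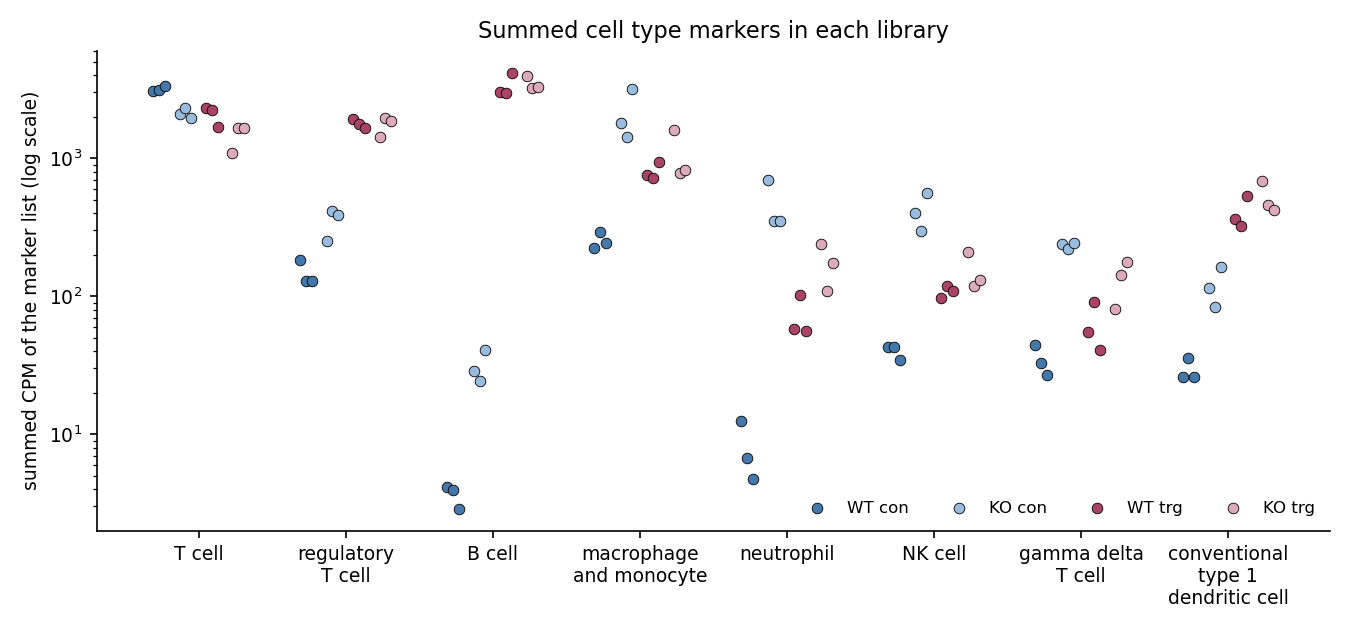
Summed CPM of 8 cell marker lists (log axis) in each of the 12 libraries, with 1 point per library and 1 colour per group. T cell markers are highest in WT conventional libraries (3063 to 3352 CPM), and the B cell sum is 2989 CPM or more in all 6 regulatory libraries and 40.8 CPM or less in all 6 conventional ones.

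Cd4 (ENSMUSG00000023274; GRCm38 chr6:124864692-124888221, minus strand) encodes the class II coreceptor. Its level was 1177, 1145 and 1208 CPM in WT conventional replicates 1 to 3, and 685, 805 and 669 CPM in the KO conventional ones. In the regulatory libraries it was 549, 513 and 419 CPM in the WT and 336, 457 and 463 CPM in the KO. Every KO conventional library lay below every WT one, whereas the regulatory genotypes overlapped. Group means were 1176 ± 31.4, 720 ± 74.6, 494 ± 66.9 and 419 ± 71.6 CPM (SD, n = 3). The KO/WT log2 fold change was -0.71 (SE 0.13) in conventional cells and -0.24 (SE 0.13) in regulatory cells, the latter with an approximate 95% interval, from its SE, of -0.49 to 0.02. The threshold used throughout was an adjusted p of 0.05 in edgeR's quasi-likelihood test over all genes.

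Cd4 is a T cell gene, and the group means of the summed T cell markers followed the same order as its own. The ratio of Cd4 to the 6 T cell markers was 0.384, 0.365 and 0.360 in WT conventional libraries and 0.326, 0.348 and 0.343 in the KO conventional libraries, a smaller gap that still did not overlap. In regulatory libraries the ratio was 0.236, 0.230 and 0.249 in WT and 0.310, 0.275 and 0.280 in KO. Here the order turned: relative to the T cell markers, Cd4 was higher in each KO regulatory library than in each WT one. Scaled to those 6 genes, the KO/WT log2 fold change of Cd4 was -0.13 (SE 0.13) in conventional and 0.27 (SE 0.13) in regulatory cells, neither past the threshold. The median of all genes moved with that scaling from -0.05 to 0.53 and from 0.00 to 0.53, so relative to all genes Cd4 stood in about the same place.

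Between the cell types, the Cd4 level was lower in regulatory than in conventional libraries, by a log2 fold change of -1.25 (SE 0.13) in WT and -0.78 (SE 0.13) in KO. With scaling to T cell genes these became -0.63 (SE 0.13), still past the threshold, and -0.23 (SE 0.13), which was not. The B cell markers, at most 40.8 CPM in conventional and at least 2989 CPM in regulatory libraries, moved with this difference, and their part in it was not tested. WT regulatory replicate 3 and KO regulatory replicate 1, the pair of libraries with Xist and Y-linked reads together, had the lowest Cd4 level, the lowest T cell marker sum (1683 and 1084 CPM) and the highest B cell marker sum (4177 and 3927 CPM) of their groups.

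**Figure D2:**
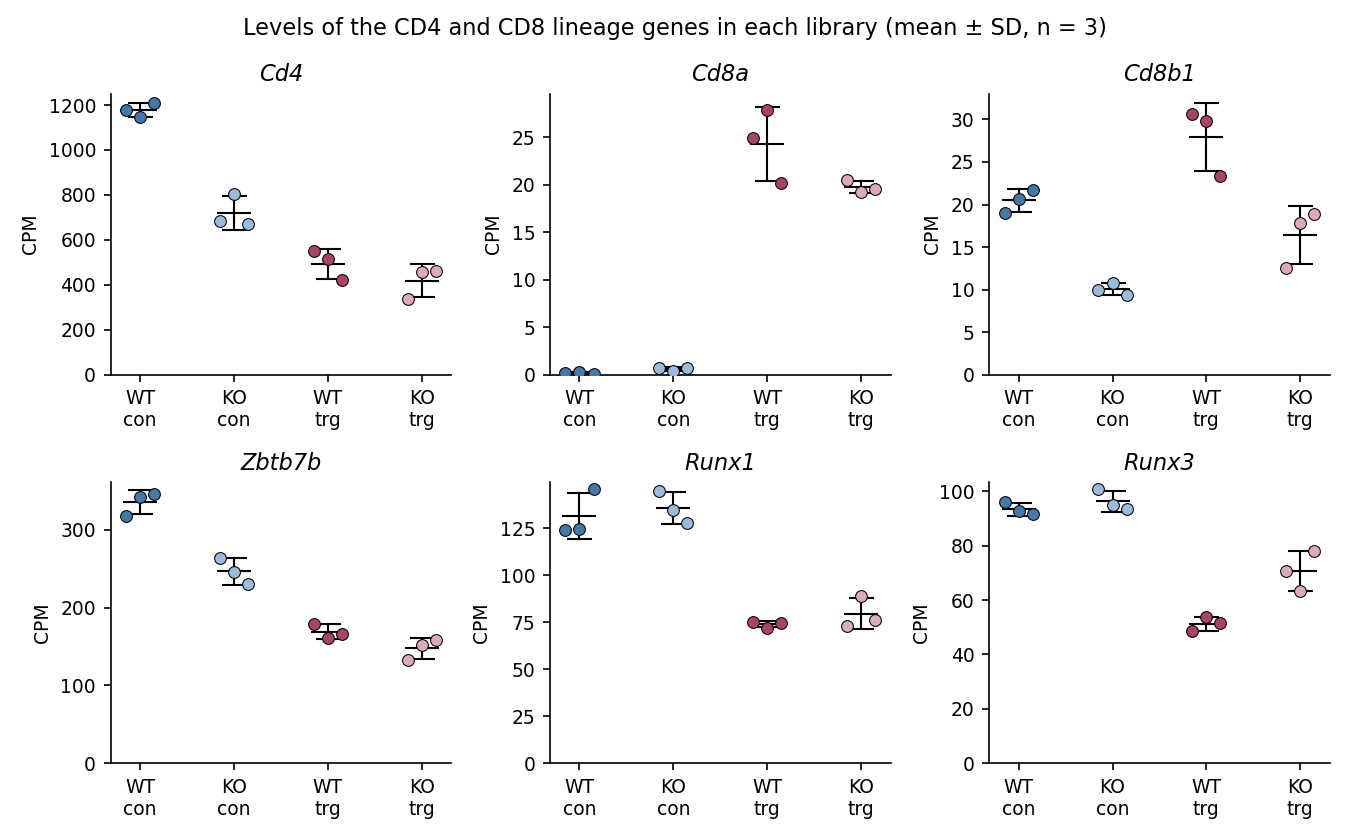
Level in CPM (linear axis from 0, own scale per gene) of the 6 genes in each of the 12 libraries, with the mean and SD of each group (n = 3). Cd4 and Zbtb7b step down from WT conventional to KO regulatory libraries, Cd8a is near 0 in all conventional libraries, and Runx3 is higher in KO than in WT regulatory libraries.

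Cd8a (ENSMUSG00000053977; GRCm38 chr6:71373427-71379173, plus strand) encodes the CD8 alpha chain, which every form of CD8 contains. The conventional libraries held very few of its reads: 4, 9 and 3 in WT and 27, 13 and 22 in KO. The regulatory libraries held far more, 460, 862 and 626 in WT and 656, 637 and 644 in KO. In CPM these were 0.135, 0.293 and 0.0961 in WT conventional, 0.748, 0.372 and 0.669 in KO conventional, 24.9, 27.9 and 20.2 in WT regulatory libraries and 20.5, 19.3 and 19.6 in the KO regulatory libraries. KO conventional libraries lay above WT conventional ones without overlap, both lay far below all regulatory libraries, and the regulatory genotypes overlapped.

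Summed over each group, the 16 WT conventional Cd8a reads made 0.167 CPM before TMM scaling, with an exact Poisson 95% interval of 0.0956 to 0.272, and the 62 KO reads made 0.648 (0.496 to 0.830). These intervals cover counting error only. The KO/WT log2 fold change was 1.75 (SE 0.38) in conventional and -0.30 (SE 0.19) in regulatory cells, with an approximate 95% interval of -0.68 to 0.08 for the latter, which did not pass the threshold and turned to 0.26 (SE 0.29) with scaling to T cell genes. The conventional value ranged from 1.45 to 2.33 when 1 library was left out. Among the libraries with Y-linked reads and at most stray Xist reads it was 2.74, from replicate 3 alone of each conventional group. Regulatory cells exceeded conventional ones by a log2 fold change of 7.09 (SE 0.30) in WT and 5.04 (SE 0.25) in KO. Type 1 conventional dendritic cells also express the alpha chain, and their 6 markers summed to 26.1 to 35.8 CPM in WT conventional, 84.2 to 162 CPM in KO conventional, 324 to 532 CPM in WT regulatory libraries and 423 to 681 CPM in the KO regulatory libraries. Of these markers, the defining Xcr1 was at 0 to 0.0336, 0.122 to 0.372, 2.23 to 4.99 and 3.71 to 7.38 CPM in that order, and Wdfy4, which B cells also express, was at 8.51 to 12.4, 41.5 to 82.1, 269 to 456 and 360 to 563 CPM, most of the sum in the regulatory libraries. The B cell marker sums given above also separated the cell types, and were higher in KO than in WT conventional libraries. The part of either cell type in the Cd8a level was not tested.

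Cd8b1 (ENSMUSG00000053044; GRCm38 chr6:71322788-71337494, plus strand) encodes the CD8 beta chain and lies 35.9 kb from Cd8a on the same strand. Its level was 19.0, 20.7 and 21.8 CPM in WT conventional libraries and 9.89, 10.8 and 9.42 CPM in the KO conventional libraries. In regulatory libraries it was 30.7, 29.8 and 23.4 CPM in the WT and 12.6, 17.8 and 18.9 CPM in the KO. KO libraries lay below WT ones in both cell types without overlap, so the beta chain transcript was lower in the KO conventional libraries in which the alpha chain transcript was higher. The KO/WT log2 fold change was -1.03 (SE 0.15) in conventional and -0.76 (SE 0.15) in regulatory cells. In conventional cells it stayed past the threshold with scaling to T cell genes, at -0.44 (SE 0.15), whereas in regulatory cells it was -0.26 (SE 0.15) and did not. Without WT regulatory replicate 2 the regulatory change was also no longer past the threshold, at -0.60 on the log2 scale.

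Regulatory libraries held more Cd8b1 than conventional ones, by a log2 fold change of 0.45 (SE 0.15) in WT and 0.71 (SE 0.15) in KO. Scaled to T cell genes, these became 1.07 (SE 0.15) and 1.25 (SE 0.16). With TMM the WT difference no longer passed the threshold without WT conventional replicate 1, WT regulatory replicate 1 or WT regulatory replicate 2, with values from 0.38 to 0.56 over the 6 libraries left out in turn.

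The balance of the CD8 chains separated the cell types completely. Each Cd8a read was accompanied by 141, 70.6 and 226 Cd8b1 reads in WT conventional libraries and by 13.2, 29.1 and 14.1 in the KO conventional ones. In regulatory libraries it was accompanied by 1.23, 1.07 and 1.16 Cd8b1 reads in WT and 0.613, 0.926 and 0.966 in KO. No group overlapped another in this ratio. Cd8a made up 0.847 ± 0.495% of the Cd8 reads in WT conventional, 5.66 ± 2.03% in KO conventional, 46.5 ± 1.75% in WT regulatory libraries and 54.9 ± 6.15% in the KO regulatory libraries (SD, n = 3). Per kb of exon, Cd8b1 stayed above Cd8a in all 12 libraries, with a Cd8a to Cd8b1 ratio of 0.00180 to 0.00578 in WT conventional and of 0.422 to 0.665 in the KO regulatory libraries.

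**Figure D3:**
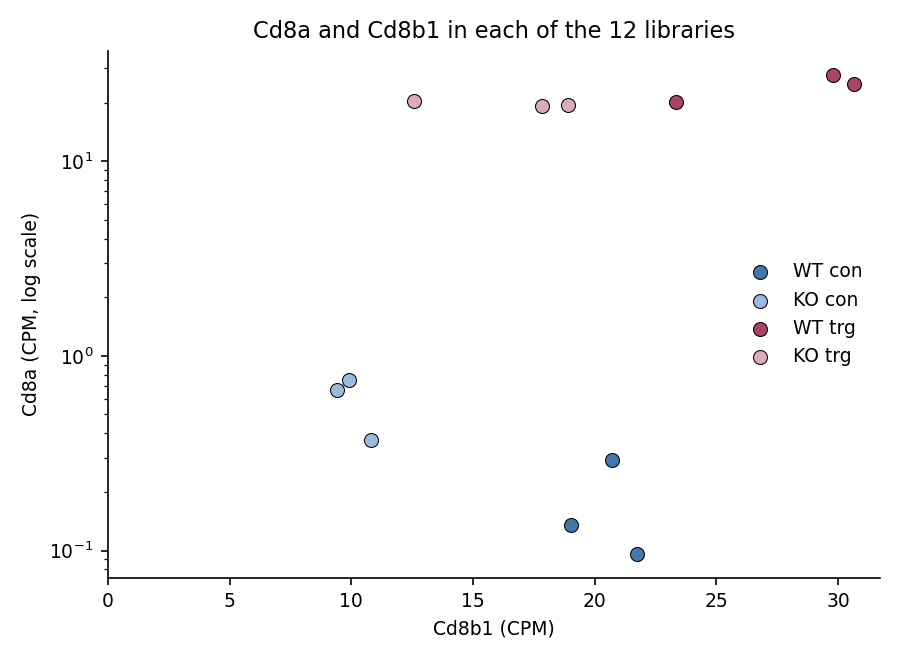
Cd8a (CPM, log axis) against Cd8b1 (CPM, linear axis) in each of the 12 libraries, coloured by group. The 6 conventional libraries lie under 1 CPM of Cd8a while holding 9.42 to 21.8 CPM of Cd8b1, and the 6 regulatory libraries lie at 19.3 to 27.9 CPM of Cd8a.

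Zbtb7b (ENSMUSG00000028042; GRCm38 chr3:89377644-89394776, minus strand) encodes ThPOK, the CD4 lineage factor. Its level was 318, 343 and 346 CPM in WT conventional libraries and 264, 246 and 230 CPM in the KO conventional libraries. In regulatory libraries it was 180, 161 and 166 CPM in the WT and 132, 152 and 159 CPM in the KO. The 4 groups did not overlap and followed the order of Cd4. The KO/WT log2 fold change was -0.44 (SE 0.07) in conventional cells, which turned to 0.15 (SE 0.16) with scaling to T cell genes, and -0.19 (SE 0.08) in regulatory cells, which did not pass the threshold and turned to 0.32 (SE 0.16). Relative to the 6 T cell markers, Zbtb7b was 0.103 to 0.109 in WT conventional libraries and 0.106 to 0.126 in the KO conventional libraries, which overlapped. Regulatory cells held less Zbtb7b than conventional cells by a log2 fold change of -0.99 (SE 0.08) in WT and -0.74 (SE 0.08) in KO, and with scaling to T cell genes by -0.35 (SE 0.16) and -0.18 (SE 0.16), neither past the threshold. An antisense gene, Gm15417, overlaps Zbtb7b with 200 to 290 reads per group, and counting used strand per the name of the deposited table.

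Runx1 (ENSMUSG00000022952; GRCm38 chr16:92601466-92826149, minus strand) encodes the RUNX protein that acts before lineage choice and in CD4 cells. Its level was 124, 125 and 146 CPM in WT conventional libraries and 145, 135 and 127 CPM in the KO conventional libraries. It was 75.1, 71.9 and 74.6 CPM in WT regulatory libraries and 73.2, 88.9 and 76.4 CPM in the KO regulatory libraries. The genotypes overlapped in both cell types, and the cell types did not. The KO/WT log2 fold change was 0.04 (SE 0.08, approximate 95% interval -0.12 to 0.20) in conventional and 0.11 (SE 0.08, -0.06 to 0.27) in regulatory cells. With scaling to T cell genes these were 0.64 and 0.62, past the threshold, beside a median of all genes of 0.53 in both. Regulatory cells held less Runx1 by a log2 fold change of -0.83 (SE 0.08) in WT and -0.77 (SE 0.08) in KO, which became -0.18 and -0.20 with that scaling, neither past the threshold.

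Runx3 (ENSMUSG00000070691; GRCm38 chr4:135120652-135177990, plus strand), the CD8 lineage factor, was measured in conventional libraries at 96.1, 92.9 and 91.5 CPM in the WT and 101, 94.8 and 93.3 CPM in the KO, which overlapped. In regulatory libraries it was 48.6, 53.8 and 51.5 CPM in the WT and 70.8, 63.2 and 78.1 CPM in the KO, which did not overlap. The KO/WT log2 fold change was 0.04 (SE 0.07, approximate 95% interval -0.10 to 0.18) in conventional and 0.46 (SE 0.07) in regulatory cells. The regulatory value was 0.46 (SE 0.09) without the 2 libraries holding Xist and Y-linked reads together, and between 0.38 and 0.54 with 1 library left out. With scaling to T cell genes the 2 values were 0.63 (SE 0.20) and 0.99 (SE 0.20), both past the threshold, beside a median of all genes of 0.53 in both. In the fit of only the groups compared the conventional value passed at 0.12. NK cells express Runx3 too, and the 7 NK markers summed to 34.6 to 42.6 CPM in WT conventional, 299 to 558 CPM in KO conventional, 97.7 to 118 CPM in WT regulatory libraries and 119 to 210 CPM in the KO regulatory libraries. Tyrobp, which myeloid cells also express, made up most of the sum in the regulatory libraries, at 77.9 to 92.1 CPM in WT and 86.6 to 171 CPM in KO. The defining receptor gene Ncr1 was there at 3.79 to 4.95 CPM in WT and 7.03 to 8.48 CPM in KO. The NK cells' part in the regulatory difference was not tested. Regulatory cells held less Runx3 than conventional ones, by a log2 fold change of -0.86 (SE 0.07) in WT and -0.45 (SE 0.07) in KO, which with scaling to T cell genes were -0.22 (SE 0.20) and 0.14 (SE 0.20), neither past the threshold.

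The ratio of Zbtb7b to Runx3 reads separated the genotypes in both cell types. Zbtb7b reads per Runx3 read averaged 3.59 ± 0.251 in the WT conventional, 2.56 ± 0.0831 in the KO conventional, 3.30 ± 0.354 in the WT regulatory and 2.10 ± 0.270 in the KO regulatory libraries (SD, n = 3). This ratio does not depend on scaling, and in neither cell type did the genotypes overlap. It can depend on other cells in a library, such as NK cells, which express Runx3 too, and their part in it was not tested. The ratio of Runx3 to Runx1 reads was 0.628 to 0.775, 0.697 to 0.732, 0.648 to 0.747 and 0.711 to 1.02 in the same order of groups, with overlapping genotypes in both cell types.

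Counted together, 4 of the 6 genes passed an adjusted p of 0.05 between KO and WT in conventional cells, 1 higher (Cd8a) and 3 lower (Cd4, Cd8b1, Zbtb7b), where 48.7% of all genes passed, 23.3% higher and 25.4% lower. In regulatory cells 2 of 6 passed, Runx3 higher and Cd8b1 lower, where 7.83% of all genes passed, 4.01% higher and 3.82% lower. Between cell types all 6 passed in WT, where 72.4% of all genes did (39.1% higher and 33.3% lower in regulatory cells), and all 6 in KO, where 67.8% did (36.1% higher and 31.7% lower). In both genotypes Cd8a and Cd8b1 were higher and the other 4 lower in regulatory cells. With scaling to T cell genes Cd4, Cd8a and Cd8b1 passed between cell types in WT, and Cd8a and Cd8b1 in KO. The share of all genes passing in that fit is not given, so these cannot be set against the shares above. The median log2 fold change of the 6 genes was -0.20 in conventional and -0.21 in regulatory KO/WT, beside -0.05 and 0.00 over all genes. Since the choice of the genes rested on these comparisons, nothing is read from the counts.

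**Figure D4:**
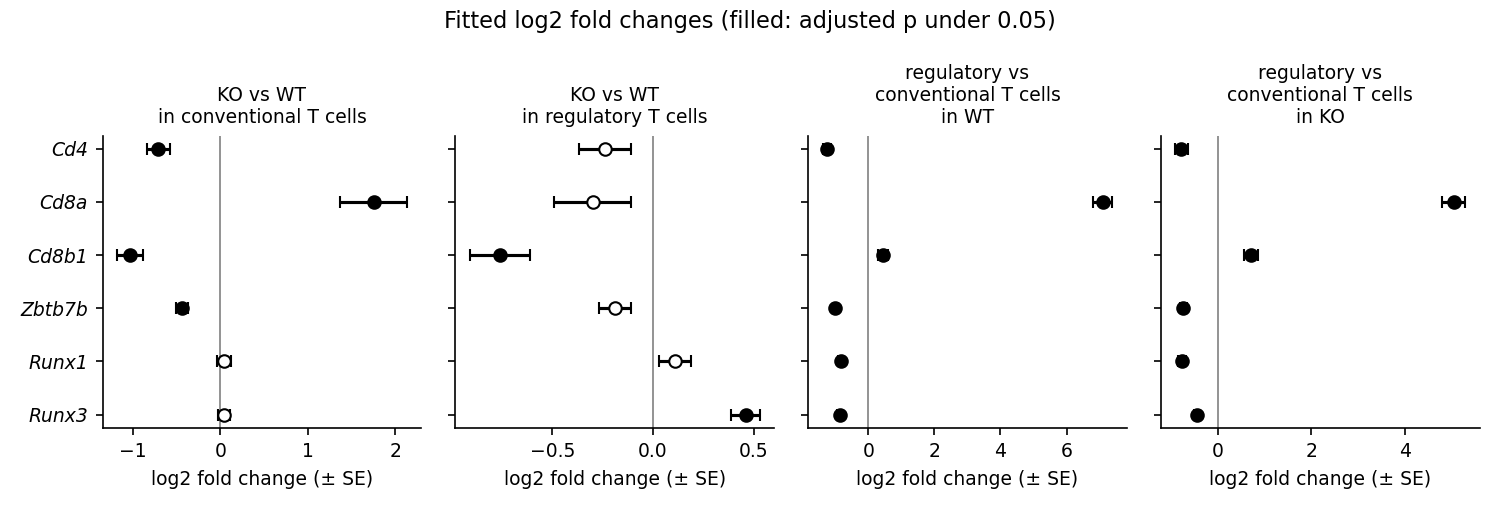
Fitted log2 fold change with its SE (x axis, own scale per panel) of the 6 genes in the 4 comparisons between groups; filled points passed an adjusted p of 0.05 and open points did not. Cd8b1 lies left of 0 in both KO/WT panels, Cd8a right of 0 in conventional cells, and Runx3 right of 0 in regulatory cells.

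The difference between the KO effects (regulatory minus conventional) passed the threshold for 2 of the 6 genes, where 21.3% of all genes passed, 8.86% higher and 12.4% lower. It was -2.05 (SE 0.43) for Cd8a and 0.42 (SE 0.10) for Runx3. The former did not pass by limma-voom, and the latter did not pass with scaling to T cell genes, at 0.36 (SE 0.28). Among the libraries with Y-linked reads and at most stray Xist reads the Runx3 value was 0.43. These libraries hold only replicate 3 of each conventional group. For Cd4 the difference between the KO effects was 0.47 (SE 0.18) and for Zbtb7b 0.25 (SE 0.11), neither past the threshold. Without KO regulatory replicate 1 these too passed, as they did without both libraries that held Xist and Y-linked reads, where they were 0.50 (SE 0.11) for Cd4 and 0.31 (SE 0.10) for Zbtb7b. In those fits 4 of 6 genes passed, with no share of all genes given beside that count. The Cd4 difference also passed with DESeq2, at 0.46 (SE 0.17), and was 0.65 among the libraries with Y-linked reads and at most stray Xist reads. For Cd8b1 the difference was 0.26 (SE 0.21) and for Runx1 0.06 (SE 0.12). The 4 comparisons between groups share libraries with one another, so their values stand side by side and are not independent.

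Per kb of exon, the 6 levels followed one order at the top and another below. Cd4 was first in all groups, at 292 ± 7.79 CPM per kb in WT conventional, 178.5 ± 18.5 in KO conventional, 122 ± 16.6 in WT regulatory libraries and 104 ± 17.8 in the KO regulatory libraries, and Zbtb7b was second, at 60.0 ± 2.74, 44.1 ± 3.06, 30.2 ± 1.71 and 26.4 ± 2.46 CPM per kb (SD, n = 3). In WT conventional libraries Runx3 (18.7), Cd8b1 (13.8), Runx1 (10.9) and Cd8a (0.0480 CPM per kb) followed without overlap between neighbours. In KO conventional libraries Cd8b1, at 6.77 CPM per kb, ranked behind Runx1, at 11.3 CPM per kb. In WT regulatory libraries Cd8b1 came next, at 18.8 CPM per kb, then Runx3, at 10.3 CPM per kb, while Cd8a (5.55 to 7.66 CPM per kb) and Runx1 (5.98 to 6.24 CPM per kb) overlapped. In KO regulatory libraries Runx3 (12.6 to 15.6 CPM per kb) overlapped Cd8b1 (8.47 to 12.8 CPM per kb), and Runx1 (6.09 to 7.39 CPM per kb) and Cd8a (5.30 to 5.64 CPM per kb) came last.

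Across the 12 libraries, Pearson r of log2 CPM was 0.98 between Cd4 and Zbtb7b, 0.39 between the 2 CD8 genes and -0.92 between Cd4 and Cd8a. These values are descriptions: the 12 points are 4 groups that differ in cell type, B cell RNA and genotype. Among 9261 tested genes of at least 10 CPM on average, the most similar to Cd4 was Idnk (r = 0.994), to Zbtb7b Fam78a (0.993), to Runx1 Tet1 (0.985), to Runx3 Ap3d1 (0.978) and to Cd8b1 Hnrnpk (0.981). For Cd8a they were Igkv1-135 (0.996), an immunoglobulin light chain segment, Ebf1 (0.996), a transcription factor of B cells, and Iglc2 (0.995), a light chain constant gene. Ebf1 lay at 0.0547 CPM in WT conventional, 0.566 CPM in KO conventional, 80.2 CPM in WT regulatory libraries and 84.8 CPM in the KO regulatory libraries, with the same order of conventional groups as for Cd8a.

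The nearest tested neighbours of Cd4 are Gpr162, 0.498 kb away, and Lag3. Gpr162 did not pass between KO and WT in conventional cells, at a log2 fold change of 0.27 (SE 0.29). Lag3, which encodes an inhibitory receptor for MHC class II related to CD4, lies 16.1 kb from Cd4. It rose by a log2 fold change of 2.55 (SE 0.34, edgeR quasi-likelihood test, Benjamini-Hochberg adjusted p = 0.000136) in the KO conventional libraries, where Cd4 was lower. Its KO effect differed between the cell types by -1.78 (SE 0.45, adjusted p = 0.0176 by the same test), which limma-voom did not call. Lag3 averaged 6.06 CPM in WT conventional, 35.5 CPM in KO conventional, 27.65 CPM in WT regulatory and 47.25 CPM in KO regulatory libraries. The marker sums of NK, gamma delta T, regulatory T, neutrophil and macrophage and monocyte cells were also higher in KO than in WT conventional libraries. Their part in the Lag3 rise was not tested. Rmnd5a, 9.46 kb from Cd8a, changed by -0.20 (SE 0.05, adjusted p = 0.00456 in edgeR) in the KO conventional libraries, where Cd8a was higher; with scaling to T cell genes it turned to 0.39.

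Of 22 other regulators of these lineages, 14 passed the threshold between KO and WT in conventional cells, 3 higher and 11 lower, with a median log2 fold change of -0.24 over the list, beside the 48.7% of genes called and the median of -0.05 over all genes. With scaling to T cell genes 7 of the 22 passed, a count with no share of all genes in that fit beside it. Runx2, the third RUNX gene and otherwise known from bone, rose from 3.77 ± 1.16 to 23.4 ± 4.21 CPM (SD, n = 3), which is 2.63 on the log2 scale (SE 0.21, edgeR adjusted p = 5.59e-06). The marker sums of NK, gamma delta T, regulatory T and myeloid cells were also higher in those KO libraries, and their part in the Runx2 rise was not tested. Hdac1, a histone deacetylase, fell by 0.42 (SE 0.05, edgeR adjusted p = 4.89e-05), and Dnmt1, the maintenance DNA methyltransferase, fell by 0.32 (SE 0.05, edgeR adjusted p = 0.00036), which with scaling to T cell genes turned to 0.17 and 0.27. Cbfb, the partner of all RUNX proteins, fell by 0.31 (SE 0.06, edgeR adjusted p = 0.00196), which that scaling turned to 0.28. In regulatory cells 2 of the 22 passed in edgeR, where 7.83% of all genes did. Both were lower, Tcf12, an E protein, by -0.23 (SE 0.05, edgeR adjusted p = 0.0223) and Lef1, a partner of TCF-1, by -0.55 (SE 0.12, edgeR adjusted p = 0.0229). DESeq2 called 6 of the 22, a count with no share of all genes in that fit beside it. With scaling to T cell genes Tcf12 turned to 0.30, and Lef1 was -0.03 and no longer passed. Neither held when WT regulatory replicate 1, KO regulatory replicate 1 or KO regulatory replicate 3 was left out, nor Lef1 without WT regulatory replicate 2.

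Between cell types in WT, 21 of the 22 regulators passed, 6 higher and 15 lower in regulatory cells, and in KO 15 did, 3 higher and 12 lower, where 72.4% and 67.8% of all genes passed. Lef1 and Tcf7, which encode the paired factors LEF-1 and TCF-1 upstream of Zbtb7b, were lower in WT regulatory cells by log2 fold changes of -2.27 (SE 0.13, edgeR adjusted p = 5.38e-08) and -2.26 (SE 0.15, edgeR adjusted p = 1.45e-07). Satb1, a chromatin organiser that acts at the lineage loci, was lower by -1.95 in WT (SE 0.10, edgeR adjusted p = 3.1e-08) and -1.72 in KO (SE 0.10, edgeR adjusted p = 1.12e-07). The difference between the KO effects passed for 5 of the 22, where 21.3% of all genes passed: Runx2 at -2.37 (SE 0.28, edgeR adjusted p = 0.000387) and, in the other direction, Hdac1, Chd4, Dnmt1 and Smarca4, between 0.21 and 0.42. Without the 2 libraries holding Xist and Y-linked reads together, 10 passed, a count with no share of all genes in that fit beside it.

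**Figure D5:**
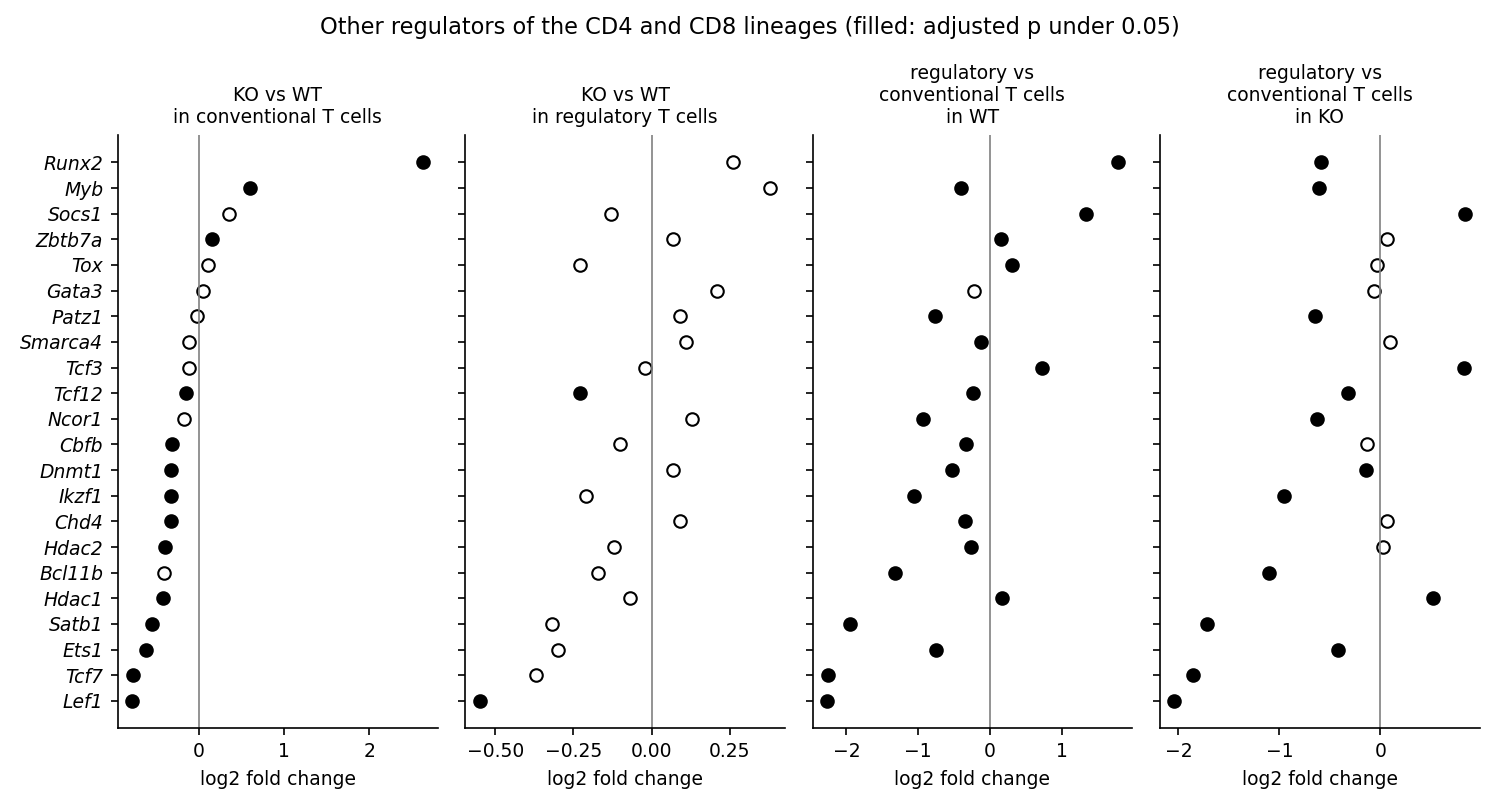
Log2 fold change (x axis, own scale per panel) of the 22 other regulators of the CD4 and CD8 lineages, ordered by their value in the first panel; filled points passed an adjusted p of 0.05. Runx2 stands apart at 2.63 in KO conventional cells, and 2 of the 22 points are filled for KO against WT in regulatory cells.

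The 8 genes whose products work beside the coreceptors at the T cell receptor are Lck, Zap70, Lat, Themis, Cd3d, Cd3e, Cd3g and Cd247. In KO conventional cells 7 of the 8 fell and none rose, with a median log2 fold change of -0.52, where 25.4% of all genes fell. When scaled to T cell genes Lat was -0.11 and Cd3g -0.06, and neither passed, but both are among the genes that set that scaling. In KO regulatory cells 2 of the 8 fell, where 3.82% of all genes did, with a median of -0.48. Those 2, Themis and Cd247, no longer passed with the replicate block, nor with scaling to T cell genes, at 0.01 and -0.07, nor without WT regulatory replicate 1 or 2 or KO regulatory replicate 1 or 2, nor did Themis without KO regulatory replicate 3. Both calls were also lost in an edgeR fit of only the groups compared, where 0 of the 8 passed and 4 had an unadjusted p under 0.05, while DESeq2 called 4 and limma-voom 1. These counts stand without the share of all genes in the same fits. Cd247, the zeta chain, fell by 0.97 (SE 0.16, edgeR adjusted p = 0.000499) in conventional cells. It does not set the scaling, and its value lay between -1.21 and -0.39 over 17 alternatives, the scaling to T cell genes among them. Between cell types 7 of the 8 were lower in regulatory cells in each genotype, with medians of -0.89 and -0.67, where 33.3% and 31.7% of all genes were lower, led in WT by Themis, a thymocyte selection adaptor, at -2.47 (SE 0.14, edgeR adjusted p = 4.68e-08). Lck, the kinase that binds both coreceptors, was at 1040, 782, 513 and 452 CPM in WT conventional, KO conventional, WT regulatory and KO regulatory libraries on average. Of these 8 genes, 4 (Lat, Cd3d, Cd3e and Cd3g) are among those used for the scaling to T cell genes.

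Of 20 genes of the cytotoxic programme that accompanies the CD8 fate, 18 rose in KO conventional cells and none fell, with a median log2 fold change of 1.93, where 23.3% of all genes rose and their median was -0.05. Gzma, a granule protease, went from 3.98 to 119 CPM on average, a log2 fold change of 4.90 (SE 0.32, edgeR adjusted p = 2.15e-06), and Klrk1, the receptor NKG2D, rose by 2.86 (SE 0.25, edgeR adjusted p = 1.01e-05). In the same libraries Cd8b1 was lower than in WT, and Cd8a was higher than in WT but lay under 1 CPM. The sums of the 7 NK markers, given above, did not overlap between the genotypes. The 7 macrophage and monocyte markers summed to 223 to 292 CPM in the WT and 1428 to 3161 CPM in the KO conventional libraries. The 6 neutrophil markers summed to 4.74 to 12.4 CPM and 351 to 694 CPM, and the 6 gamma delta T cell markers to 26.8 to 44.1 CPM and 221 to 244 CPM. Their part in the cytotoxic genes was not tested. In KO regulatory cells 3 of the 20 rose, where 4.01% of all genes did, while the median of the list was -0.06, of the opposite sign. They were Gzma, Itgae, an integrin chain, which rose by 1.23 (SE 0.20, edgeR adjusted p = 0.00581), and the chemokine gene Ccl5. DESeq2 called 6 of the 20 in either direction, a count with no share of all genes in that fit beside it. Ccl5 no longer passed with the replicate block, in the fit of only the groups compared, without any 1 of the 6 regulatory libraries, or without the 2 holding Xist and Y-linked reads together. Between cell types 13 of the 20 passed in WT, 8 higher and 5 lower in regulatory cells, and 16 in KO, 2 higher and 14 lower, where 72.4% and 67.8% of all genes passed. The difference between the KO effects passed for 16 of the 20, in each case with a lower KO effect in regulatory cells, where 12.4% of all genes passed in that direction.

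The 7 dendritic cell markers, of which Ccr7, also expressed by T cells, made up most, summed to 597 to 646 and 348.5 to 371 CPM in conventional libraries of WT and KO, and to 324 to 378 and 305 to 353 CPM in the regulatory libraries of WT and KO. In conventional libraries Ccr7 alone was lower in KO, at 593 to 641.5 CPM in WT and 259 to 314 CPM in KO. Each of the other dendritic cell markers was higher in KO than in WT conventional libraries without overlap. Itgax, for example, was at 2.02 to 3.36 CPM in WT and 30.7 to 61.5 CPM in KO. Immature thymocytes express both coreceptors. Their 6 markers, of which Cd1d1 is also expressed by B cells and other cells, summed to 49.2 to 56.1 CPM in WT conventional, 42.5 to 43.4 CPM in KO conventional, 60.9 to 67.6 CPM in WT regulatory libraries and 78.5 to 106 CPM in the KO regulatory libraries. Cd1d1 made up 38.2 to 43.5 CPM and 37.7 to 38.3 CPM of the sums in conventional libraries of WT and KO, where Rag2 was at 0. Rag1, which such cells and immature B cells need to recombine receptors, was at 0 in WT conventional and at 0.0277 CPM at most in the KO conventional libraries, and at 6.39 to 15.3 CPM in regulatory ones. Dntt, another of these markers, was higher in WT conventional (10.4 to 12.3 CPM) than in WT regulatory libraries (5.95 to 6.93 CPM). It was at 4.01 to 4.77 CPM in KO conventional and 18.7 to 37.7 CPM in KO regulatory libraries. The part of immature thymocytes in the CD8 levels of the regulatory libraries was not tested.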

How the data were processed

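The authors deposited 1 table of unnormalized counts, with a row per Ensembl gene and a column per library. Per the submitters' processing notes STAR was used with GRCm38, and the table's name says that counting was reverse stranded. Libraries were made from polyadenylated RNA with a stranded kit, per the labels. The annotation release and the counting settings are not given in the sources used here. Symbols and exon lengths came from GENCODE M21 (45143 of 45706 IDs matched), and promoter letters from RefSeq (GRCm38.p6). The 4 tallies of reads given to no gene stayed out of library sizes.

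Counts were fitted in R 4.3.3 with edgeR 4.0.16: filterByExpr (minimum count 10, minimum total 15), TMM, 1 term per group over all 12 libraries, and a two-sided quasi-likelihood F test with Benjamini-Hochberg adjustment over 15922 genes at a threshold of 0.05. SE is the size of the log2 fold change over the square root of its F. The procedure was tested on simulated data. Figures were drawn with Python 3.11.15 and matplotlib 3.10.9.

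The members, 3 gene lists and 10 marker lists were chosen with earlier results of these data known. From each list and each comparison between groups the rule names up to 3 genes with the smallest p past the threshold and over 3 summed counts per group, and every regulator past it for the difference of effects. It also names the nearest tested neighbours, and for each member the 3 most alike genes of at least 10 CPM. The text prints some of these. Cbfb, Gm15417 and the Lck levels were added after their values were seen. Alternatives were RLE and upper-quartile factors, scaling to 6 T cell genes, DESeq2 1.42.0, limma-voom (limma 3.58.1), no filter, a mean of at least 5 CPM, only the groups compared, a replicate block, each library left out, the 2 libraries holding Xist and Y-linked reads together left out, and a threshold of 0.01. Using only libraries with Y-linked and at most stray Xist reads was chosen after seeing the data.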

Additional observations from a re-analysis of the deposited data

Results flagged for a closer look

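The difference of the knockout effect between regulatory and conventional T cells passed the threshold (edgeR's quasi-likelihood test, adjusted over all genes) for 2 of the 6 lineage genes and 5 of the 22 other regulators. These genes were chosen with results of these comparisons known, so the values are a description. For Cd8a the effect in regulatory minus that in conventional cells was -2.05 on the log2 scale, and for Runx3 it was 0.42. Among the regulators it was -2.37 for Runx2, 0.42 for Chd4, 0.39 for Dnmt1, 0.35 for Hdac1 and 0.21 for Smarca4. The same threshold was passed by 21.3% of all genes tested. The Cd8a value rests on 16 and 62 summed reads in the conventional groups, and the Smarca4 value did not pass in 20 of the 22 alternatives.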

How the results depend on the processing

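Scaling to 6 T cell genes moved the median of all genes from -0.05 to 0.53 and from 0.00 to 0.53 for KO/WT in conventional and regulatory cells, and from 0.07 to 0.71 and from 0.03 to 0.62 between cell types in WT and KO. With it the 6 lineage genes past the threshold numbered 3 between cell types in WT, 2 in KO and 1 for the difference of effects, and the regulators numbered 7 in conventional and 9 in regulatory KO/WT, 12 between cell types in WT and 1 for the difference. Signs turned for Zbtb7b in conventional KO/WT (0.15), Runx3 between cell types in KO (0.14), Hdac1 (0.17), Dnmt1 (0.27), Cbfb (0.28) and Rmnd5a (0.39) in conventional KO/WT, and Tcf12 (0.30) and Themis (0.01) in regulatory KO/WT, as they did for values of regulatory KO/WT that did not pass, in Cd8a (from -0.30 to 0.26), Cd4 (from -0.24 to 0.27) and Zbtb7b (from -0.19 to 0.32). For regulatory KO/WT, 1 lineage gene and 0 regulators passed in an edgeR fit of only the groups compared, where 6 regulators had an unadjusted p under 0.05, and 1 and 0 at a threshold of 0.01, where 7 did in the fit reported; DESeq2 called 6 regulators and limma-voom 2. For the difference of effects 1 lineage gene passed by limma-voom and 1 at 0.01, with 3 regulators at 0.01. Without the libraries holding both Xist and Y-linked reads 4 lineage genes and 10 regulators passed. Libraries with Y-linked and at most stray Xist reads include only replicate 3 of each conventional group, so no count is given for them. All counts under the alternatives stand without the share of all genes passing in the same fit. With 1 library left out, the lineage genes past the threshold ranged from 1 (without WT regulatory replicate 2) to 2 in regulatory KO/WT and from 2 to 4 (without KO regulatory replicate 1) for the difference, and the regulators from 0 to 5 and from 3 (without KO regulatory replicate 2) to 8 (without KO regulatory replicate 1). Deviations from group means had r from -0.518 to 0.176 between same-numbered libraries of different groups, with 4 of 18 over 0.1. Between libraries of different numbers r ran from -0.458 to 0.567, with 10 of 36 over 0.1. With 3 libraries per group these values cannot decide whether the numbers pair the samples. With the replicate block 4, 2, 6, 6 and 2 lineage genes passed in the 5 comparisons, the same counts as without it. Themis, Cd247 and Ccl5 in regulatory KO/WT lost their calls with the block (-0.51, -0.58 and 1.28). The cause of these changes was not tested. The 3 to 9 Cd8a reads per WT conventional library limit the precision of its fold changes.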
